A study of Mus musculus with 8 samples.

Results

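Guanylate-binding proteins (GBPs) are large GTPases of the dynamin superfamily. The 9 mouse genes described here, Gbp2, Gbp3, Gbp4, Gbp5, Gbp6, Gbp7, Gbp8, Gbp9 and Gbp10, were taken by name from the 55367 genes of the count table, and all 9 were present. Neuro2a, a mouse neuroblastoma line, had been transfected with plasmids in preliminary work on CRISPR activation for disorders of SCN2A, a sodium channel gene. CRISPRa cultures received 750 ng of sgRNA plasmid with 750 ng of sadCas9-VP64 plasmid, that is, a nuclease-dead Staphylococcus aureus Cas9 fused to the VP64 activator. The no-sgRNA cultures are titled as a VP64 control without sgRNA, so by the titles both groups carried the activator. No plasmid amounts are given for the no-sgRNA cultures, so whether total plasmid DNA was matched is not known. Counts were analysed for CRISPRa replicates 2, 3 and 5 and for no-sgRNA replicates 2, 3 and 4. The labels do not say whether replicates were separate cultures, so the p-values measure the spread between these samples, which may be technical. All cells were of 1 line, and in bulk RNA a larger share of responding cells cannot be told apart from more RNA per responding cell.

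Mouse GBP genes are classical interferon-induced genes, switched on through IRF1 and other factors at interferon-stimulated response elements (ISRE) and gamma-activated sites (GAS). Interferon gamma is the strongest known inducer, and type I interferons induce many of them as well. The proteins bind GTP through a conserved P-loop, assemble on membranes, and coat pathogen vacuoles and cytosolic bacteria together with the immunity-related GTPases (IRGs). Some of them carry a C-terminal prenylation signal that anchors them in membranes.

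The genes lie in a pair of clusters, 4 on the plus strand of chromosome 3 and 5 on the minus strand of chromosome 5, and all are annotated as protein coding (GRCm38). On chromosome 3 the order is Gbp5 (142493978 to 142522344), Gbp7 (142530342 to 142550149), Gbp3 (142560026 to 142573209) and Gbp2 (142620602 to 142638008). On chromosome 5 it is Gbp8 (105014150 to 105139540), Gbp9 (105077630 to 105139539), Gbp4 (105115767 to 105139586), Gbp10 (105215699 to 105239533) and Gbp6 (105270702 to 105293698). Gbp8, Gbp9 and Gbp4 overlap in span because some of their transcripts start from a shared upstream exon.

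RefSeq promoter windows (GRCm38.p6, 250 bases before to 50 after a transcript start) were matched for 4 of the 9 genes, all on chromosome 3. They are printed because these genes were high together in the same libraries, and capitals mark matches to the ISRE core TTTCNNTTTC or to the GAS core TTCNNNGAA, each searched on both strands. The windows are chr3:142496684-142496983 for Gbp5, chr3:142530086-142530385 for Gbp7, chr3:142559794-142560093 for Gbp3 and chr3:142620413-142620712 for Gbp2, all plus strand. The Gbp5 window lies inside the annotated span, which begins further upstream.
Gbp5 promoter: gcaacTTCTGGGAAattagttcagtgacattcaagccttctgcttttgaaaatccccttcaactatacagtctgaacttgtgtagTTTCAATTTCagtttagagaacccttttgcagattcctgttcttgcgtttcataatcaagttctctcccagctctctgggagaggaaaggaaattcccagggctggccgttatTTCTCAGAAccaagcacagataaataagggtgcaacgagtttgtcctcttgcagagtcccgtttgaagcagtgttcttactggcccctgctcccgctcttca
Gbp7 promoter: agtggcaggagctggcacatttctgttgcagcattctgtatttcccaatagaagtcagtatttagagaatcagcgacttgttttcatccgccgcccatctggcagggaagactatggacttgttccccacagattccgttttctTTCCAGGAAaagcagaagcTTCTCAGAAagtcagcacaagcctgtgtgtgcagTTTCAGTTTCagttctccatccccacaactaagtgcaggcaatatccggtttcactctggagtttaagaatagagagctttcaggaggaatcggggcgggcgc
Gbp3 promoter: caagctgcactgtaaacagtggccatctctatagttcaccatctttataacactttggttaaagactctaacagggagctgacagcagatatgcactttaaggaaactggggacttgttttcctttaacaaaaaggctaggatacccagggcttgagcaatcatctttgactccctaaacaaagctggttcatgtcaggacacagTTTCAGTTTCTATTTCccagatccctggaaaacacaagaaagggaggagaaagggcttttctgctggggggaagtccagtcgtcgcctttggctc
Gbp2 promoter: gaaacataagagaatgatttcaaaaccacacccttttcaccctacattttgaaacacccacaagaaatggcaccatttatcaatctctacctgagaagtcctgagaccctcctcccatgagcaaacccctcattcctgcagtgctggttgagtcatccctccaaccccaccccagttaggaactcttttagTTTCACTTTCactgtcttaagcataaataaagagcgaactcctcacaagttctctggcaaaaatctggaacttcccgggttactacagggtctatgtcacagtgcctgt

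Each of these 4 windows held the ISRE core, which occurs in 3.44% of all 32851 windows of this length. The match read TTTCAATTTC in Gbp5, TTTCAGTTTC in Gbp7 and TTTCACTTTC in Gbp2, while Gbp3 had TTTCAGTTTC overlapping a further TTTCTATTTC. Relative to the transcript start, the matches began at position -165 in Gbp5, -53 in Gbp7, -45 and -39 in Gbp3, and -59 in Gbp2. The GAS core, present in 8.3% of windows, was found in 2 copies in Gbp5 (TTCTGGGAA and TTCTCAGAA) and in 2 copies in Gbp7 (TTCCAGGAA and TTCTCAGAA). Neither the Gbp3 nor the Gbp2 window held those letters. A second RefSeq window of Gbp3, which starts 13 bases past the end of the first, held neither core. These matches describe letters, not bound sites.

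Sequence is shared between the paralogs, and this limits how firmly reads can be given to a single gene. To show how alike the copies are, the first 60 coding bases from the start of the P-loop codons (the GxxxxGKS motif of GTP binding) are given for all 9 genes from GENCODE M21 transcripts. Capitals mark bases that differ from the most common base at that position.
Gbp5 P-loop stretch: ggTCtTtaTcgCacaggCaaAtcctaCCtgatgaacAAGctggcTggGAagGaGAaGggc
Gbp7 P-loop stretch: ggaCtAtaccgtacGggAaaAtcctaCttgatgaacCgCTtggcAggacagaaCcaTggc
Gbp3 P-loop stretch: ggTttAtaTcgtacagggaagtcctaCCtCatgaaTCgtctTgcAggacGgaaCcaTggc
Gbp2 P-loop stretch: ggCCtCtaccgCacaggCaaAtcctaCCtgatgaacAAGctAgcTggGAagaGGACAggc
Gbp8 P-loop stretch: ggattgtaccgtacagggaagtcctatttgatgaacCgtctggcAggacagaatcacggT
Gbp9 P-loop stretch: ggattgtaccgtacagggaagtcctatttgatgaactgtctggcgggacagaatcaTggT
Gbp4 P-loop stretch: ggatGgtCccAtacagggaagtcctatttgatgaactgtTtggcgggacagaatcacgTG
Gbp10 P-loop stretch: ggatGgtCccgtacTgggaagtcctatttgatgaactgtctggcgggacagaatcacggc
Gbp6 P-loop stretch: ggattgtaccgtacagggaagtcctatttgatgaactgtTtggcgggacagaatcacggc

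In this stretch the chromosome 5 genes differed from the most common base at 1 to 6 of the 60 positions, against 12 to 20 in the chromosome 3 genes. The most common base is set by the larger number of chromosome 5 genes. Over the whole coding sequence, pairs of chromosome 5 members were 89.7% to 98.4% identical at aligned bases, the highest being Gbp6 with Gbp10. Pairs of chromosome 3 members were 64.4% to 78.6% identical, the highest being Gbp3 with Gbp7, and pairs across the clusters 63.2% to 75.9%. Of the 50-base words in its transcripts, Gbp10 shared 84.1% with other genes and Gbp6 shared 70.7%, mostly with each other and with Gm43302, a gene annotated across both. The shares were 18.1% for Gbp8, 12.7% for Gbp7, 8.05% for Gbp9, 7.7% for Gbp4, 3.75% for Gbp3, 2.03% for Gbp2 and 1.44% for Gbp5. Exons of Gm43302 on the same strand cover 46.3% of the exon bases of Gbp10 and 29% of those of Gbp6, and Gm43302 itself had 1 count in all 6 libraries. Gm43802 covers 11.4% of Gbp7 exon bases and had 0 counts. The values of Gbp10 and Gbp6 are therefore uncertain as single genes, since the handling of reads that fit several genes is not given in the sources used here.

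Library totals ran from 29739422 to 34248514 counts, and 3 counts corresponded to 0.0876 to 0.101 CPM, a count scaled by its library total. Among genes with 1 to 12 counts, 72.9% to 75.1% per library had an even count, so low counts may not be independent molecules. The intervals below take each count as independent, so they may be too narrow even for counting error. Neither intervals nor floors cover the spread between libraries. Scn2a, the gene of the series title, stood at 7.81 ± 0.714 CPM with CRISPRa and 5.61 ± 1.31 CPM without a guide (SD, n = 3). In the edgeR test described below, Scn2a had a log2 fold change of 0.477 and was not called (adjusted p 0.0899). The authors' deposited table, which covers 8 samples, gave Scn2a 0.619 with an adjusted p of 0.00138. The 10 sympathetic neuroblastoma markers summed to 1604 to 1817 CPM in the CRISPRa libraries and 1849 to 2014 CPM in the controls. Of 9 leukocyte and macrophage markers, a cell type in which GBPs are abundant after interferon, 4 (Adgre1, Itgam, Lyz2 and Cd3e) were at 0 counts in every library. The sum of these 9 markers was 1.63 to 2.11 CPM with CRISPRa and 0.727 to 1.95 CPM without a guide, mostly Cd68. The 4 endothelial markers summed to 8.42 to 11.6 CPM with CRISPRa and 10.1 to 13.7 CPM without, and the 5 fibroblast markers to 14.6 to 21.4 CPM against 28.6 to 32.4 CPM.

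Gbp reads were nearly absent without a guide and present in every CRISPRa library. Summed over the 9 genes, the CRISPRa libraries held 93.4, 90.1 and 133 CPM in replicates 2, 3 and 5, and the no-sgRNA libraries 1.05, 0.337 and 0.979 CPM in replicates 2, 3 and 4. The ratio of the group means, 106 ± 24 against 0.788 ± 0.393 CPM (SD, n = 3), was 134. Gbp3 and Gbp7 took 86.4% to 89.2% of the member counts in the CRISPRa libraries. For 8 of the 9 genes every CRISPRa library lay above every control library, beside 11.6% of the 25827 genes with any count.

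**Figure D1:**
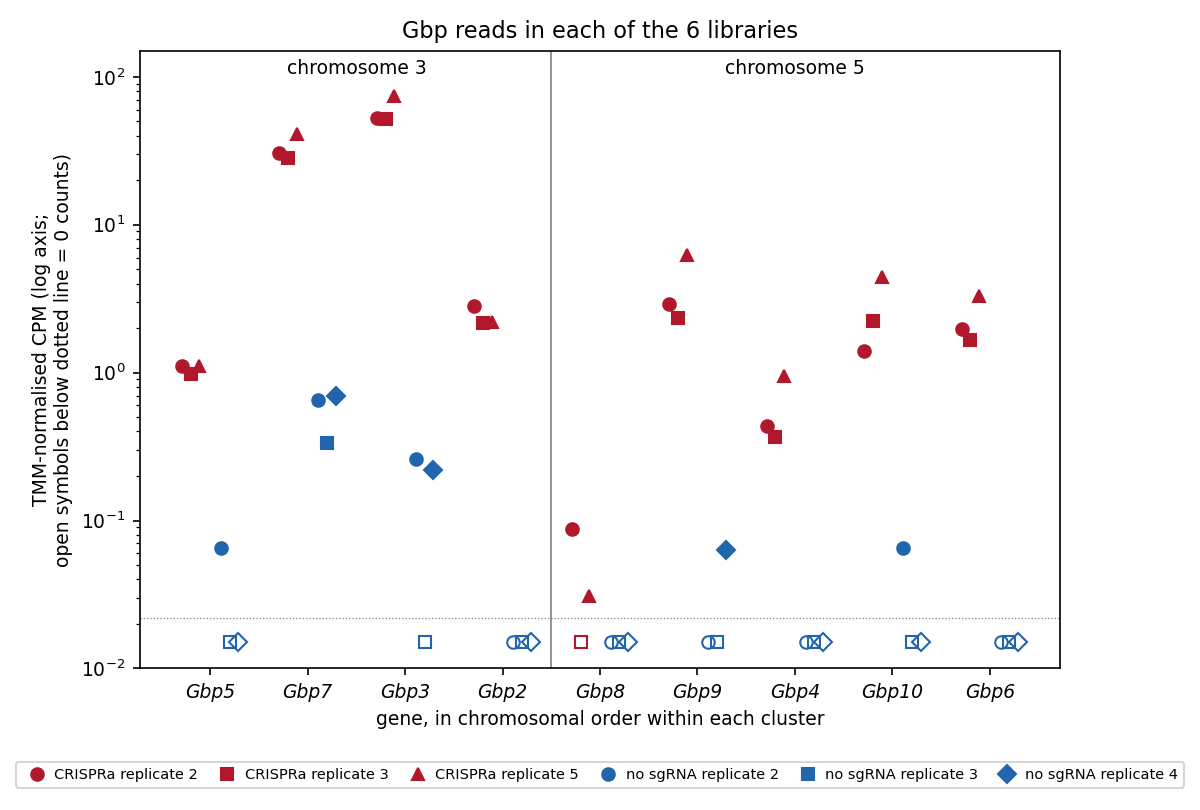
TMM-normalised CPM of each Gbp gene (log axis) in each of the 6 libraries, CRISPRa in red and no sgRNA in blue, with open symbols for 0 counts. All red symbols lie above all blue symbols in 8 of the 9 genes, the exception being Gbp8, which had at most 3 counts.

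All members but Gbp8 entered the test across all genes. A gene was called changed at a Benjamini-Hochberg adjusted p under 0.05 in edgeR's quasi-likelihood test over all 15117 tested genes, and 9.47% of those genes were changed and higher with CRISPRa. The 8 tested Gbp genes were all changed and higher. That count is a description only, because 7 of the 8 fell below the filter's cutoff of 0.309 CPM in at least 1 control library, so they entered the test through the CRISPRa libraries. Gbp7 alone reached the cutoff in every control library. For each of the 8 genes, the exact two-sided permutation test of mean CPM gave p = 0.1, the smallest that 3 against 3 libraries allow.

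On chromosome 3, Gbp3 had the most reads. It had 1801, 1694 and 2399 counts in CRISPRa replicates 2, 3 and 5, against 8, 0 and 7 counts in no-sgRNA replicates 2, 3 and 4. CRISPRa replicate 5 was the highest, and 1 control library had none. The CRISPRa mean was 59.4 ± 12.6 CPM and the control mean 0.161 ± 0.141 CPM (SD, n = 3). In log2 units Gbp3 rose by 8.47 ± 0.29 (SE), with an edgeR adjusted p of 9.85e-12.

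Gbp7, linked in mouse macrophages to defence against intracellular bacteria, was the member with the most control reads. Its counts were 1048, 928 and 1334 with CRISPRa and 20, 10 and 22 without a guide. The groups were far apart, and CRISPRa replicate 5 was again the highest. The control mean was 0.562 ± 0.196 CPM and the CRISPRa mean 33.3 ± 6.83 CPM (SD, n = 3). In log2 units Gbp7 rose by 5.87 ± 0.22 (SE), with an edgeR adjusted p of 2.97e-11.

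Gbp2, a prenylated GBP that coats the vacuole of Toxoplasma, had 97, 71 and 71 counts with CRISPRa and 0 in every control library. Its CRISPRa libraries were close together at 2.82, 2.17 and 2.19 CPM, and replicate 5 did not stand above the others. Against a floor of 3 counts per control library, Gbp2 was at least 24.4-fold higher with CRISPRa (edgeR adjusted p 6.7e-06).

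Gbp5, known for promoting assembly of the NLRP3 inflammasome, had 38, 32 and 36 counts with CRISPRa and 2, 0 and 0 without a guide. It was the least variable of the tested members across CRISPRa libraries, at 1.06 ± 0.0729 CPM (SD, n = 3). The ratio of pooled counts per read was 49.5, with an exact 95% interval of 13.4 to 414, and the edgeR adjusted p was 0.000358. No-sgRNA replicate 2 held the only control reads, and without it the fitted log2 fold change of Gbp5 went from 5.38 to 8.10.

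On chromosome 5 every gene was lower in reads than Gbp3 and Gbp7, and the CRISPRa libraries were less alike. Gbp9 had 100, 77 and 201 counts with CRISPRa and 0, 0 and 2 without a guide. Replicate 5 held more Gbp9 reads than the other CRISPRa libraries combined, and the groups did not overlap. The pooled count ratio was 176 (exact 95% interval 48.5 to 1462, edgeR adjusted p 5.6e-06). Without no-sgRNA replicate 4, the only control with Gbp9 reads, the fitted log2 fold change went from 7.22 to 9.93.

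Gbp10 and Gbp6, the near-identical pair, were each high in replicate 5 as well. For Gbp10 the counts were 48, 73 and 143 with CRISPRa and 2, 0 and 0 without, a pooled count ratio of 123 (exact 95% interval 33.8 to 1023, edgeR adjusted p 3.45e-05). Its control reads were all in no-sgRNA replicate 2, and without that library the fitted log2 fold change went from 6.70 to 9.43. Gbp6 had 68, 54 and 107 counts with CRISPRa and 0 in every control, and was at least 23.6-fold higher against the same floor (edgeR adjusted p 1.76e-05). The order of replicates 2 and 3 differed between these genes, with Gbp10 higher in replicate 3 and Gbp6 higher in replicate 2.

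Gbp4, reported in mouse as an inhibitor of IRF7 and so of virus-induced type I interferon, had the fewest CRISPRa reads of the tested members. It had 15, 12 and 31 counts with CRISPRa and 0 in every control, at least 5.98-fold higher (edgeR adjusted p 0.00172). Gbp8 had 3, 0 and 1 counts with CRISPRa and 0 in the controls. Both groups were at or under the floor for Gbp8, so no difference was detectable at this depth.

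Levels between genes were compared as CPM per kilobase of the deposited exon length, in the CRISPRa libraries. Gbp3 was first at 18.2, followed by Gbp7 at 5.94, and the libraries of this pair overlapped neither each other nor those of the next gene. Gbp2 (0.951), Gbp9 (0.738), Gbp10 (0.692) and Gbp6 (0.388) came next, and each overlapped its neighbour in the order. The places of Gbp10 and Gbp6 are uncertain, because most of their 50-base words are shared with other genes. Exons of Gm43302, which had 1 count, also cover 46.3% of Gbp10 and 29% of Gbp6 exon bases. If reads there were counted for no gene, the per-kilobase levels of Gbp10 and Gbp6 are too low, and Gbp10 could stand higher in the order. Gbp5 (0.16), Gbp4 (0.0782) and Gbp8 (0.0114) closed the order without overlap. In the control libraries Gbp7 stood at 0.1 and Gbp3 at 0.0493 CPM per kilobase, so their order was the reverse of that with CRISPRa, but the ranges of the control libraries overlapped.

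**Figure D2:**
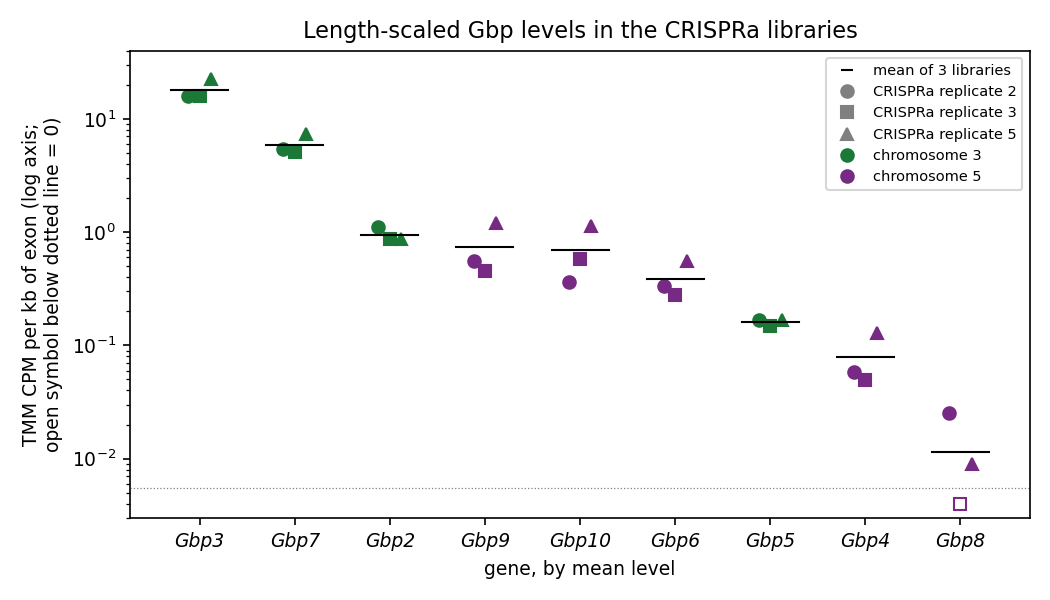
TMM CPM per kilobase of exon (log axis) of each Gbp gene in CRISPRa replicates 2, 3 and 5, with a bar at the mean of the 3 libraries, green for chromosome 3 and purple for chromosome 5. Gbp3 at 18.2 and Gbp7 at 5.94 stand apart from the other 7 genes, whose means lie between 0.0114 and 0.951.

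The clusters differed in how far CRISPRa replicate 5 lay from replicates 2 and 3. Replicate 5 was 2.43 times the mean of the other pair for Gbp10, 2.38 times for Gbp4, 2.36 times for Gbp9 and 1.82 times for Gbp6. On chromosome 3 the ratios were 1.42 for Gbp3, 1.4 for Gbp7, 1.07 for Gbp5 and 0.877 for Gbp2. Of the 2840 tested genes with a CRISPRa mean in the range of the tested chromosome 5 members, 4.82% had a ratio of at least 1.82, and their median ratio was 0.958. The bound of 1.82 is the Gbp6 ratio, the lowest of the tested chromosome 5 genes, so the 4.82% is a description only. The sum over chromosome 5 members was 6.79, 6.62 and 14.9 CPM in replicates 2, 3 and 5, and that over chromosome 3 members 86.6, 83.5 and 118 CPM. This is 1 library, and the difference between the clusters was not tested. A high replicate 5 was also seen outside chromosome 5. In replicates 2, 3 and 5, the IRG gene Iigp1 had 1.83, 2.08 and 6.17 CPM and Tgtp2 had 2.44, 3.16 and 5.55 CPM. The IRG gene Irgm1 differed less, at 109, 103 and 118 CPM. Gbp6 and Gbp10 share most of their 50-base words, so they are not separate measurements. All 8 genes stayed changed without CRISPRa replicate 5.

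**Figure D3:**
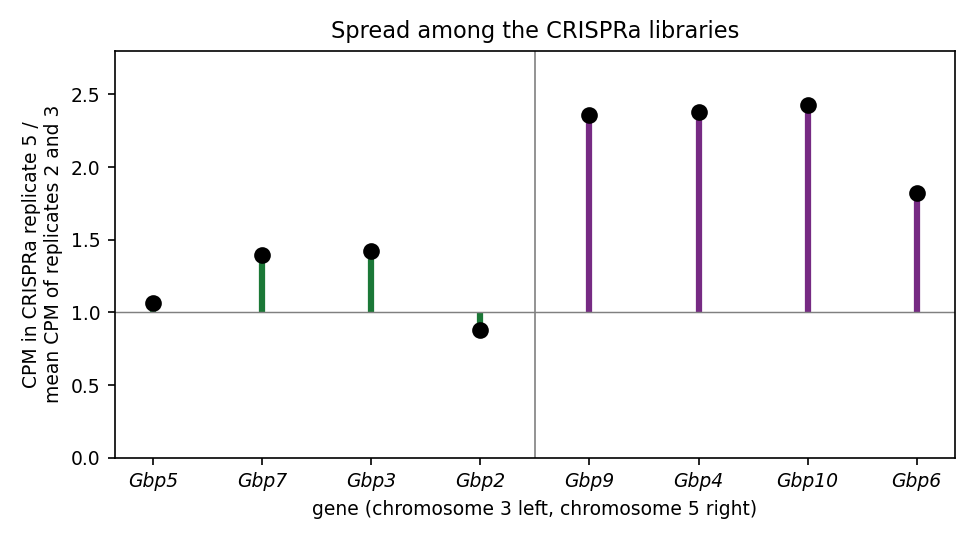
Ratio of CPM in CRISPRa replicate 5 to the mean CPM of CRISPRa replicates 2 and 3 for each tested Gbp gene, with a line at 1. The chromosome 5 genes lie between 1.82 and 2.43 and the chromosome 3 genes between 0.877 and 1.42, while Gbp8 is left out because it had 4 counts in all.

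Other genes of the clusters were compared to see where the difference ended. Gbp2b (chromosome 3, 142594847 to 142619179), the mouse counterpart of human GBP1, had 134, 41 and 106 counts with CRISPRa and 0, 0 and 18 without a guide. All its control reads came from replicate 4, and it rose by 3.83 ± 0.79 (SE) in log2 units, with an edgeR adjusted p of 0.00367. DESeq2 on these 6 libraries did not call it (adjusted p 0.178). Its edgeR adjusted p stayed at or below 0.0189 with any 1 library left out. Without no-sgRNA replicate 4 its fitted value was 9.49. Over 8 samples, the authors' deposited table put Gbp2b at 4.38 (SE 1.36) in log2 units, below the 0.05 threshold (adjusted p 0.0069). Its RefSeq window held the ISRE core TTTCACTTTC at position -137 and no GAS core. Gbp11, annotated as a polymorphic pseudogene, had 0, 2 and 16 counts with CRISPRa and 0 in every control, and the pseudogene Gbp2-ps had 0 in all 6 libraries. Within 200 kb of the clusters, 6 genes outside the family were tested and 0 were changed by edgeR, beside 18.7% of all tested genes, 3 of them with an unadjusted p under 0.05 (Pdlim5, Lrrc8b and Lrrc8c). Gtf2b, a general transcription factor just beyond the chromosome 3 cluster, stood at 23.6 ± 0.868 CPM with CRISPRa and 25.2 ± 3.07 CPM without (SD, n = 3). Lrrc8b, a volume-regulated anion channel subunit just beyond the chromosome 5 cluster, was at 0.24 ± 0.08 (SE) in log2 units with an edgeR adjusted p of 0.0547, and Lrrc8c at 0.22 ± 0.08 (SE) with 0.0555. These lie at the threshold: Lrrc8b passed it in 7 and Lrrc8c in 8 of 16 alternative fits, DESeq2 among them (adjusted p 0.0371 and 0.0362). Lrrc8b also passed without CRISPRa replicate 2 (edgeR adjusted p 0.0409) and Lrrc8c without CRISPRa replicate 5 (edgeR adjusted p 0.0226).

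**Figure D4:**
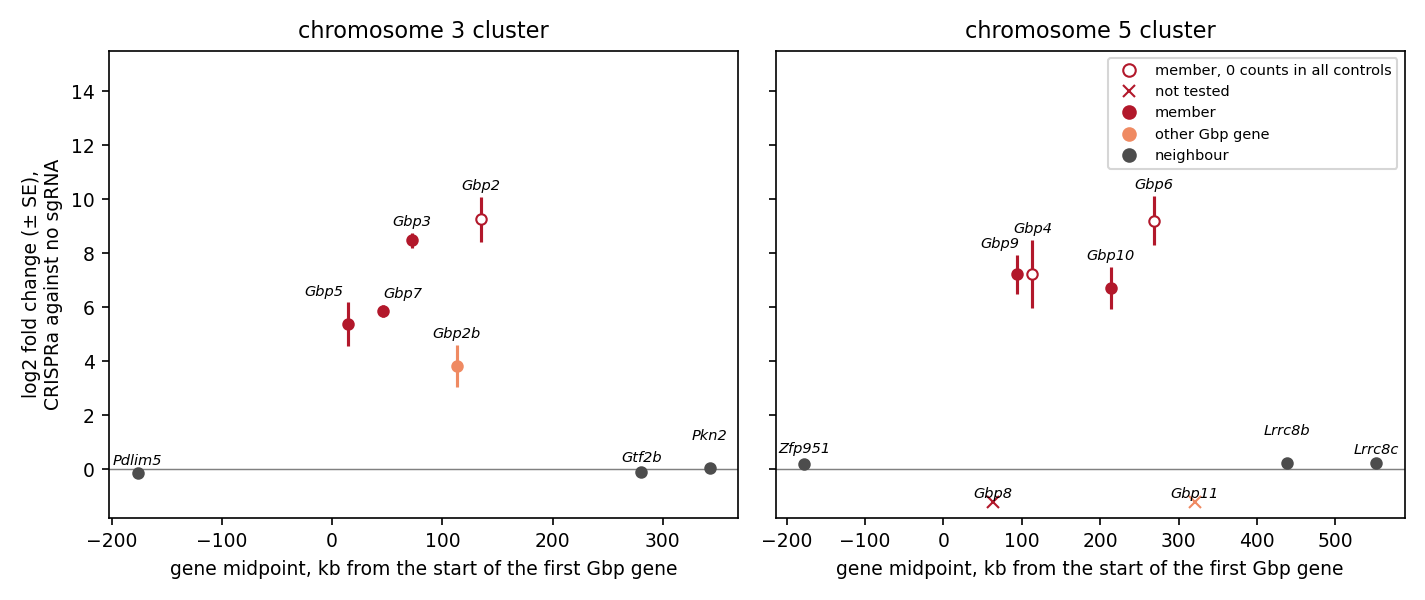
edgeR log2 fold change (± SE) of the Gbp genes and of tested genes within 200 kb, by distance in kb from the first Gbp gene of the chromosome 3 cluster (left) and the chromosome 5 cluster (right). Open symbols had 0 counts in every control, so their fitted value is not a measured fold, crosses mark untested genes at no value, and the 6 neighbouring genes lie between -0.16 and 0.24.

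The pathway around the GBPs was described with 9 lists of 60 genes, of which 44 were tested. In all, 21 were changed and higher and 2 were changed and lower, beside 18.7% of all tested genes changed in either direction. None of the 10 listed interferon ligands passed the filter, and of the Ifna genes the list holds only Ifna1, Ifna2 and Ifna4. Ifng, Ifnb1 and 7 others had 0 counts in every library, and Ifnz had 8 counts in 1 CRISPRa library and 2 in 1 control library. The 4 receptor chains were tested and 0 were changed by edgeR, with 0 at an unadjusted p under 0.05. Ifngr1 stood at 33.2 ± 3.38 with CRISPRa and 35.3 ± 1.47 CPM without, and Ifnar1 at 81.5 ± 5.07 and 81 ± 1.91 CPM (SD, n = 3).

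Of the 7 tested signalling genes, 5 rose. Irf9, the DNA-binding subunit of ISGF3, stood at 130 ± 5.19 CPM with CRISPRa and 23.3 ± 0.599 CPM without (SD, n = 3), and rose by 2.48 ± 0.07 (SE) on the log2 scale, with an edgeR adjusted p of 1.49e-12. Its partner Stat2 rose by 2 on the same scale. Irf1, the factor required for full Gbp induction, rose by 1.29 (SE 0.10) and Jak2, a kinase of the interferon gamma receptor, by 0.49 (SE 0.09). Jak1 and Tyk2 did not pass, with log2 fold changes of 0.10 and 0.11. Irf8, a myeloid factor, was not tested, with at most 2 counts in any library. Among the 3 inhibitors, the deISGylase gene Usp18 rose by 7.17 (SE 0.19) and Socs1, an inhibitor of JAK kinases, by 1.25 (SE 0.21), while Socs3 had 0.28 (edgeR adjusted p 0.243).

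Of 7 IRG genes, the GTPases that act with GBPs at vacuoles, 6 were tested and all 6 rose. Gm12250, Iigp1 and Tgtp2 lay below the filter cutoff in at least 1 control library, so 3 of the 6 entered through the CRISPRa libraries and the count is a description only. The regulators Irgm1, Irgm2 and Igtp rose by 4.37, 4.50 and 4.64 on the log2 scale. Iigp1 had 63, 68 and 200 counts with CRISPRa and 2, 0 and 0 without, so its replicate 5 was high as in the chromosome 5 Gbp genes. Its fitted log2 fold change of 7.03 became 6.26 without CRISPRa replicate 5 and 9.75 without no-sgRNA replicate 2. Tgtp2 had 84, 103 and 180 counts with CRISPRa and 0 in every control, at least 37.9-fold higher, though it has a near-identical copy in Tgtp1. Irgb10, listed as Gm12250, rose from 0.184 ± 0.0446 to 0.897 ± 0.212 CPM (SD, n = 3), with an edgeR adjusted p of 0.00883.

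Further lists held genes that act on GBPs or beside them. Of 5 prenylation genes, Fnta and Fntb, the farnesyltransferase subunits, fell by 0.21 and 0.43 on the log2 scale (edgeR adjusted p 0.0259 and 0.00914). The Fnta call was lost when any library but no-sgRNA replicate 4 was left out, with edgeR adjusted p from 0.0546 to 0.112. Of 11 membrane-targeting genes, 4 rose: Trim21 (1.80), Sqstm1 (0.78), Gabarapl1 (0.55) and Gabarapl2 (0.25), in log2 fold change. The Gabarapl2 call was lost when any library but no-sgRNA replicate 3 was left out, with edgeR adjusted p from 0.077 to 0.135. Their other 7, which include Atg3, Atg5, Atg7 and Atg16l1 of the conjugation machinery that delivers GBPs to vacuoles, did not pass. In the inflammasome list, Gsdmd, the pore-forming gasdermin, rose by 0.76 and the DNA sensor Aim2 by 0.46, and Nlrp3 did not pass at 0.46 (edgeR adjusted p 0.432). Casp4, Casp1 and Pycard were not tested, with at most 12 counts in any library. Of the related large GTPases, the antiviral Mx1 and Mx2 rose by 4.42 and 3.25. The atlastin genes Atl1, Atl2 and Atl3, the closest relatives of GBPs, did not pass, with log2 fold changes from -0.26 to 0.07. Atl3 lay close to the threshold at -0.22 (edgeR adjusted p 0.0568), though it passed in 0 of 16 alternative fits.

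**Figure D5:**
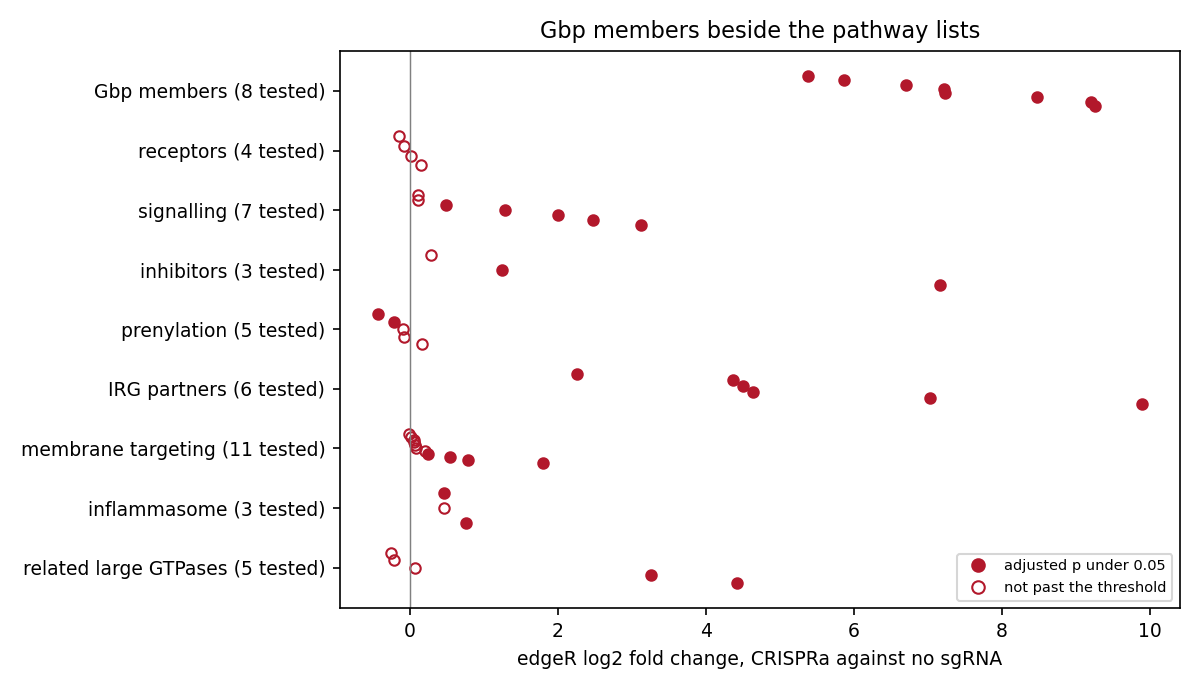
edgeR log2 fold changes of the tested Gbp genes and of each pathway list, 1 symbol per gene, filled where the adjusted p was under 0.05. The Gbp genes lie between 5.38 and 9.26 in fitted value and the 4 receptor genes between -0.15 and 0.14.

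Among tested genes outside the 9, the profiles closest to the mean centred log2 CPM profile of the 8 tested Gbp genes were those of Ddx60, Rtp4, Ccl5, Oasl1 and Apol9a. Their Euclidean distances over the 6 libraries ran from 0.452 to 0.712, and their correlations with the mean profile from 0.995 to 0.998, which mostly restate the split into 2 groups of libraries. Ddx60, a helicase of antiviral RNA sensing, was closest, with 408, 516 and 722 counts with CRISPRa and 12, 8 and 10 without a guide. As in Gbp3 and Gbp7, its highest library was CRISPRa replicate 5.

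The authors' deposited table, which covers 8 samples and does not state its direction, listed 8 of the 9 genes, all with a positive log2 fold change, and not Gbp8. The authors' deposited table gave 8.37 (SE 0.364) for Gbp3, 5.67 (SE 0.194) for Gbp7, 8.71 (SE 1.06) for Gbp2 and 8.48 (SE 1.07) for Gbp6. Gbp2 and Gbp6 had 0 counts in every control library analysed here, so on those libraries their fitted values are not a measured fold. In the authors' deposited table, 6 of the 9 genes had an adjusted p under 0.05, and these were all the members given one. Of the 13798 genes given an adjusted p there, 14.8% were under 0.05 with a positive log2 fold change. The table gave no adjusted p for Gbp4 and Gbp5, whose unadjusted p-values in the authors' deposited table were 0.000117 and 9.22e-08. Its number of samples is that of the labels, which include the 6 libraries analysed, so it cannot be taken as a separate experiment.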

How the data were processed

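Libraries were made from poly(A)-enriched RNA, per the labels' protocols. The authors deposited raw read counts per gene for 6 of the 8 labelled samples, with a summed exon length. STAR 2.5.1b, featureCounts, DESeq2 and the build mm10 are named in the submitters' processing notes. The strand setting and the rule for multi-mapping reads were not given in the sources used here. The authors' second table holds, per the file headers, a mean normalised signal, log2 fold changes with SE, a Wald score and p-values, none recomputed. The remaining 2 samples (CRISPRa 1, no-sgRNA 5) enter no value of the report.

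Counts were tested with edgeR 4.0.16 (R 4.3.3; glmQLFit, glmQLFTest, filterByExpr defaults, TMM factors from 0.978 to 1.01, no covariate), checked on simulated data. SE is the log2 fold change divided by the square root of F. CPM is TMM-normalised, and lower bounds use 3 counts per control library on the same scale. Pooled ratios use library totals. Pooled count ratios carry exact (Clopper-Pearson) intervals. Samples were grouped by title. Equal replicate numbers were not treated as pairs in the main fit. Deviations of replicates 2 and 3 correlated at -0.0046 and -0.026 across 15117 genes, which does not show whether equal numbers were handled together. Alternatives were other scalings, filters, DESeq2 1.42.0, limma-voom (limma 3.58.1), a threshold of 0.01, each library left out, a replicate block, and, added after seeing the data, halved counts.

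The named genes were the 9 members, other Gbp genes, tested genes within 200 kb, up to 3 changed genes per pathway list, Scn2a and the 5 closest profiles. Some genes that this rule would name are not reported here. Further pathway genes were named after their values were seen. Members and lists were chosen with earlier results of these data known. Irgb10 was matched to Gm12250 through RefSeq synonyms, coding sequences came from GENCODE M21 and promoters from RefSeq.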

Additional observations from a re-analysis of the deposited data

How the results depend on the processing

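The 8 tested Gbp genes remained changed and higher in every alternative that tested them, beside 9.47% of all tested genes in the main fit. In that fit 7 of these 8 Gbp genes entered through the CRISPRa libraries, so the repeats are a description only. Requiring 1 CPM in 3 or more libraries removed Gbp4 and Gbp5 and left 6 of 6 changed, and halving the counts removed Gbp4 and left 7 of 7. No member reached 1 CPM in any control library, the highest being Gbp7 at 0.695 CPM. Members passed the 1 CPM filter through the CRISPRa libraries, so the 6 of 6 is a description only. With no filter Gbp8 was tested and was not changed. The highest adjusted p of any member, 0.0107, was that of Gbp4 without no-sgRNA replicate 3. Fitted log2 fold changes of genes at or near 0 in the controls moved with the setting, from 4.82 to 8.10 for Gbp5, from 6.69 to 9.93 for Gbp9 and from 5.58 to 9.43 for Gbp10. Gbp7 stayed between 5.61 and 6.05. The summed CRISPRa level was 91.7 CPM without replicate 5.

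The number of changed genes over all tested fell from 2829 to 1417 at an adjusted p of 0.01, by construction, and ran from 1987 to 2518 with 1 library left out. A window of 500 kb around the clusters held 2 changed genes of 9 tested, Thoc2l and Lrrc8d, both higher, beside 18.7% of all tested genes, against 0 of 6 at 200 kb and 0 of 3 at 100 kb. Within 200 kb, Lrrc8b and Lrrc8c made 2 changed genes with RLE factors, no filter, the 1 CPM filter, DESeq2 or halved counts, and 1 of them passed with library size only, so the count of 0 depends on the setting. With 1 library left out the count was 0 to 1. A replicate block over numbers 2 and 3 gave 8 changed members, 22 changed pathway genes and 3170 changed genes over all, and the same 4 libraries unblocked gave 8, 23 and 2830. The neighbour count was 1 in both, Jak1 passed in both, and the Gm12250 call was lost under the block (adjusted p 0.0501). Fnta also lost its call with no filter (adjusted p 0.059). Log2 fold changes near 0, in genes not called, changed sign: with 1 library left out, Ifnar1 ran from -0.0094 to 0.068, Atg3 from -0.0045 to 0.12, Atg5 from -2.6e-05 to 0.14 and Gtf2b from -0.14 to 0.015. Gtf2b was at 0.044 with and without the block. Depth limits Gbp8, the ligands and the control levels, which rest on 0 to 22 counts per library.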
